A study of Homo sapiens with 6 samples.

Results

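The genes described here encode carriers of amino acids and related small molecules of the plasma membrane and the lysosome. They were taken from the count table by name: every gene symbol beginning with SLC1A, SLC3A, SLC6A, SLC7A, SLC36A, SLC38A or SLC43A followed by a number, with SLC7A11, pseudogenes and antisense names left out. This gave 41 of the 21173 genes in the table. Of these, 29 had enough reads to be tested, among 14431 tested genes. The libraries came from TPC1, a human papillary thyroid carcinoma cell line: 3 libraries of cells labelled as wild type with a vector, and 3 of cells labelled as overexpressing TFCP2L1, a CP2-type transcription factor. The labels name neither the promoter that drives TFCP2L1 nor whether the cells were a clone or a pool. Nothing in them says that the 3 libraries of a group came from separate cultures. The p-values therefore set the group difference against the spread between these libraries only, and that spread may be technical.

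Amino acids cross membranes on carriers with overlapping substrates. Some carriers of the SLC7 family work only when bound to a glycoprotein heavy chain, SLC3A2 or SLC3A1, and exchange one amino acid for another. The sodium-coupled carriers of the SLC1, SLC6 and SLC38 families bring neutral amino acids, glutamate and glycine into the cell, and carriers of the lysosome return amino acids to the cytosol, where they are sensed upstream of the growth kinase complex mTORC1. SLC7A5 with SLC3A2 takes up leucine and other large neutral amino acids and is abundant in many cancer cells.

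Library totals ran from 37928516 to 38987434 reads. TFCP2L1 itself had at most 1 read in a vector library and 12333 to 13885 reads in a TFCP2L1 library, as labelled. Of the thyroid markers in the table, PAX8 had 17535 to 21516 reads and FOXE1 478 to 743 reads in each library, TG had 29 to 56 and SLC5A5 0 to 6. Of the epithelial markers, the keratin genes KRT18 and KRT8 had 5607 to 6671 and 904 to 1122 reads in each library. The keratin gene KRT19 had 0 to 8 reads and EPCAM 1 to 20 in each, and CDH1 had 1 read in all 6 libraries together. Of the leukocyte markers in the table, PTPRC had 0 to 7 reads, LYZ 0 to 6 and CD14 4 to 16. Of the fibroblast markers, COL1A2 and COL3A1 had 0 or 1 read, while COL1A1 had 128 to 203, PDGFRB 110 to 149 and LUM 23 to 75 in each library. Of the endothelial markers, PECAM1 had 21 to 46 reads, KDR 0 to 12 and VWF 0 to 6. In bulk RNA, fewer cells of a kind and less RNA per cell cannot be told apart. Mitochondrially encoded genes took 5.14% to 6.72% of reads in vector libraries and 5.19% to 7.59% in TFCP2L1 libraries.

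A small set of carriers made up most of the transporter transcripts. Levels of different genes were compared as FPKM, reads scaled by gene length and library total, as deposited by the authors. In vector cells the order was SLC38A2 at 107.9 ± 3.92 FPKM (SD, n = 3), SLC7A5 at 88.7 ± 2.89, SLC43A3 at 85.7 ± 4.46, SLC3A2 at 65.4 ± 6.18, SLC1A5 at 55.0 ± 0.740, SLC38A1 at 44.6 ± 1.88 and SLC7A1 at 37.9 ± 2.20. The libraries of SLC7A5 and SLC43A3 overlapped, and the other neighbours among these 7 genes did not. Together the 7 held 80.4% ± 0.435 of the summed FPKM of the 41 genes in vector cells and 83.4% ± 0.343 in TFCP2L1 cells. The next gene, the taurine carrier SLC6A6, stood at 16.1 ± 0.883 FPKM in vector cells. By mean in TFCP2L1 cells SLC7A5 came first at 112.4 ± 13.98 FPKM, followed by SLC43A3 at 96.7 ± 2.34 and SLC38A2 at 87.1 ± 6.72. There the libraries of SLC43A3 overlapped both those of SLC7A5 and those of SLC38A2. In TFCP2L1 replicate 2, SLC38A2 (94.8 FPKM) was above SLC43A3 (94.6 FPKM). The summed FPKM of the 41 genes was 604 ± 5.23 in vector cells and 621 ± 19.8 in TFCP2L1 cells.

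**Figure D1:**
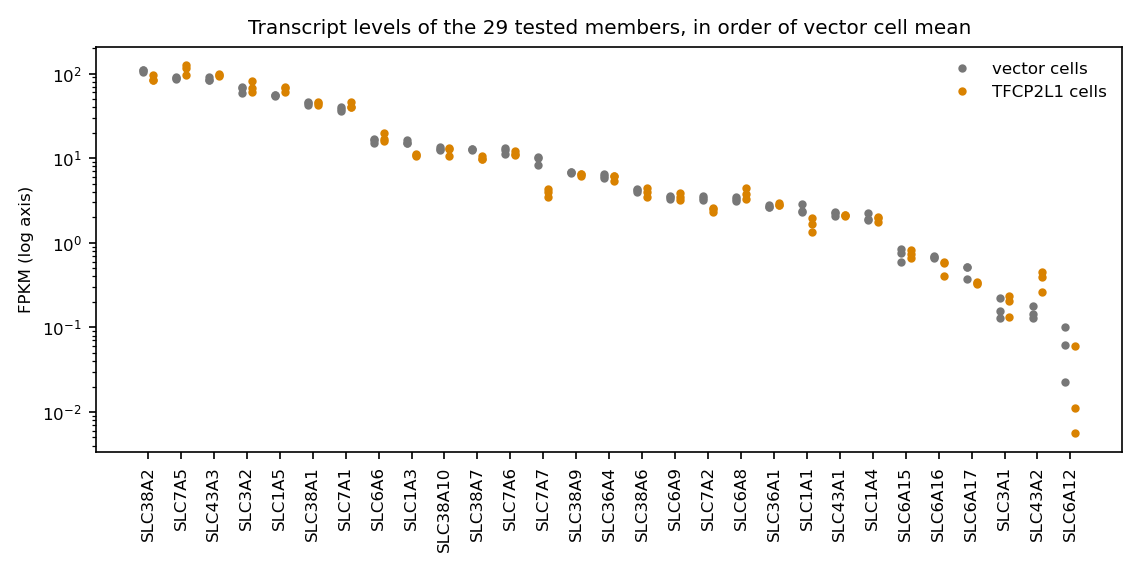
FPKM (log axis) of the 29 tested transporter genes, ordered by the vector cell mean, with each point a library (gray vector, orange TFCP2L1, 3 each). SLC38A2, SLC7A5, SLC43A3, SLC3A2, SLC1A5, SLC38A1 and SLC7A1 stand above the rest, and the orange points of SLC7A7 lie below the gray ones.

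TFCP2L1 and vector cells were compared to ask which carrier transcripts differ when TFCP2L1 is overexpressed. Within a gene, levels are given as CPM, counts scaled by the TMM-adjusted library totals. A call needed a p under 0.05 in edgeR's quasi-likelihood test after Benjamini-Hochberg adjustment over all tested genes. Of the 29 tested transporter genes 2 rose, SLC7A5 and SLC43A2, and 6 fell, SLC7A7, SLC1A1, SLC1A3, SLC7A2, SLC38A7 and SLC38A2. The shares were 6.9% higher and 20.7% lower, beside 4.68% higher and 7.04% lower among all tested genes. The count that rose was 1 without vector replicate 1 or 3 or without TFCP2L1 replicate 1 or 3, and 3 without TFCP2L1 replicate 2. The count that fell was 4 to 6 when a library was left out. The median log2 fold change was -0.08 over the 29 genes and 0.00 over all tested genes (0.00252). The 3 TFCP2L1 libraries all lay above the vector libraries for 4 of the 29 genes and all below for 9, beside 14.4% and 15.6% of all tested genes.

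**Figure D2:**
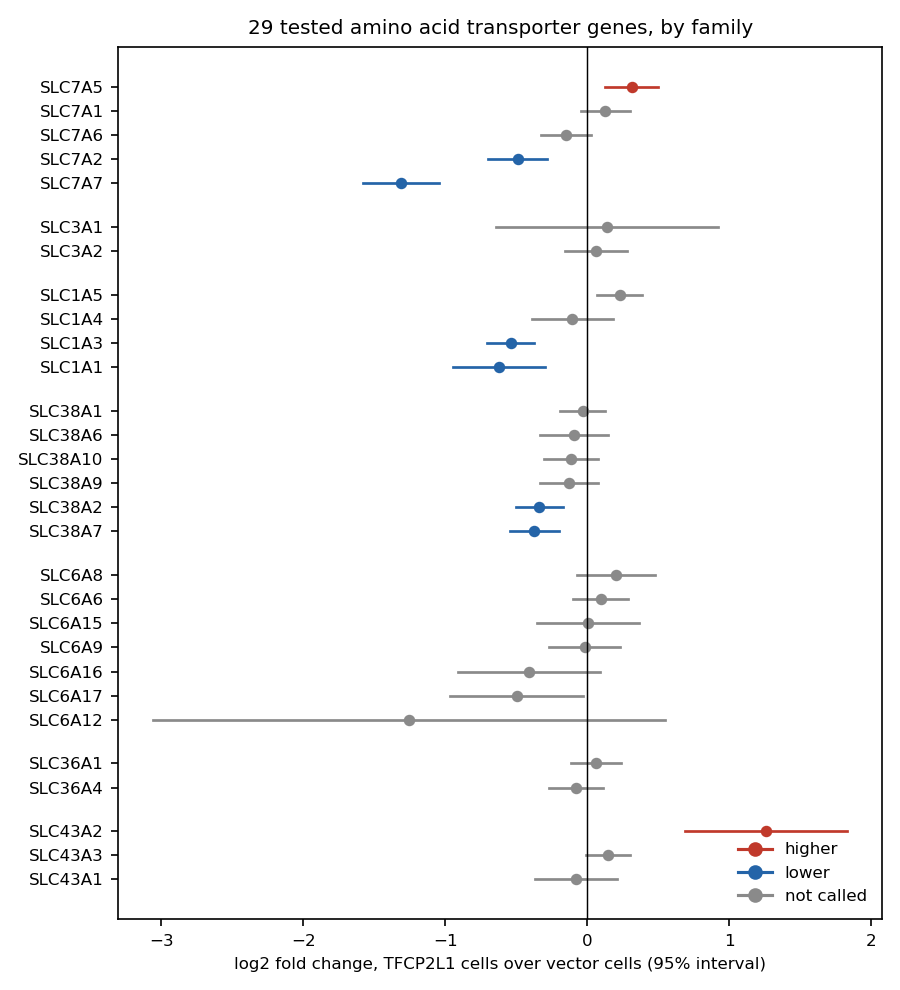
Log2 fold change of TFCP2L1 over vector cells with its 95% interval for the 29 tested genes, grouped by family and coloured by call (red higher, blue lower, gray not called). SLC7A7 lies furthest below 0 among the called genes and SLC43A2 furthest above.

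Carriers that pair with a heavy chain moved in different directions. SLC7A5, the leucine exchanger known as LAT1 (GRCh38 chromosome 16, 87830023 to 87869488, minus strand), stood at 466, 500 and 476 CPM in the vector libraries and at 607, 519 and 668 CPM in the TFCP2L1 libraries. The groups did not overlap, and TFCP2L1 replicate 2 was the nearest to the vector range. SLC7A5 rose by 0.32 ± 0.09 (SE) on the log2 scale (edgeR adjusted p = 0.0281). It was not called in edgeR with vector replicate 1 left out (adjusted p = 0.132), vector replicate 3 (0.116), TFCP2L1 replicate 1 (0.0916) or TFCP2L1 replicate 3 (0.0715), nor in limma on log2 of the deposited FPKM values plus 1 (0.0763) or plus 0.1 (0.0728). An antisense gene covers 5.71% of its exon bases, and strand could not be told apart.

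SLC7A7, which exports arginine and lysine in exchange for neutral amino acids and sodium (chromosome 14, 22773222 to 22829820, minus strand), had the largest fall of the 6. It stood at 19.7, 24.0 and 24.7 CPM in the vector libraries and at 9.92, 8.24 and 9.42 CPM in the TFCP2L1 libraries, with every TFCP2L1 library well below the vector range. SLC7A7 fell by 1.31 on the log2 scale (SE 0.13, 2.48-fold lower; edgeR adjusted p = 3.53e-06), and the call held under all 17 alternatives run. Its close relative SLC7A6 was at 84.5 ± 7.27 CPM in vector and 76.2 ± 4.34 CPM in TFCP2L1 cells and was not called (log2 fold change -0.15, 95% interval -0.33 to 0.03; edgeR adjusted p = 0.291). The antisense genes SLC7A6OS and AC020978.9 overlap 55.6% of the exon bases of SLC7A6, so its level is uncertain. The ratio of SLC7A6 to SLC7A7 in FPKM was 1.36, 1.33 and 1.19 in the vector libraries and 2.62, 3.07 and 2.99 in the TFCP2L1 libraries.

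The heavy chain gene SLC3A2 (chromosome 11, 62856102 to 62888875, plus strand), whose product carries SLC7A5, SLC7A6 and SLC7A7 to the plasma membrane, was at 173, 145 and 166 CPM in the vector libraries and at 196, 162 and 146 CPM in the TFCP2L1 libraries. The groups overlapped, and the log2 fold change was 0.06 (95% interval -0.16 to 0.28; edgeR adjusted p = 0.760). The lowest library of each group, vector replicate 2 and TFCP2L1 replicate 3, also had the highest mitochondrial share of its group, 6.72% and 7.59%; the part of this in the SLC3A2 level was not tested. The ratio of SLC7A5 to SLC3A2 in FPKM was 1.23, 1.57 and 1.31 in the vector libraries and 1.41, 1.46 and 2.08 in the TFCP2L1 libraries. These ratios overlapped between the groups, and whether SLC7A5 and SLC3A2 changed by different amounts was not tested. The other heavy chain gene, SLC3A1, known from kidney and intestine, was at 0.865 ± 0.242 and 0.954 ± 0.263 CPM. Other genes share 26.9% of its exon bases on the same strand and 29.4% on the opposite strand.

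**Figure D3:**
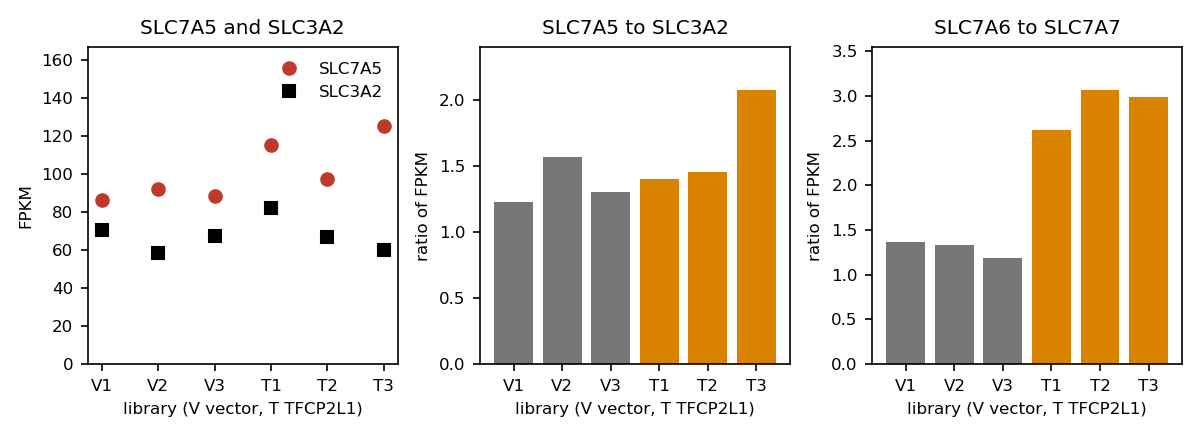
FPKM of SLC7A5 (red circles) and SLC3A2 (black squares) in each library, and bars of the ratio of FPKM of SLC7A5 to SLC3A2 and of SLC7A6 to SLC7A7 (gray V1 to V3 vector, orange T1 to T3 TFCP2L1). The SLC7A5 to SLC3A2 ratios overlap between groups, while the SLC7A6 to SLC7A7 ratios are 1.19 to 1.36 in vector and 2.62 to 3.07 in TFCP2L1 libraries.

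Of the carriers of cationic amino acids that need no heavy chain, SLC7A2 fell. It stood at 29.5, 26.1 and 27.5 CPM in the vector libraries and at 20.6, 20.0 and 18.6 CPM in the TFCP2L1 libraries, without overlap. SLC7A2 fell by 0.49 on the log2 scale (SE 0.10; edgeR adjusted p = 0.00383). The more abundant arginine carrier gene SLC7A1 was at 286 ± 17.7 and 313 ± 27.5 CPM and was not called (log2 fold change 0.13, 95% interval -0.04 to 0.30; edgeR adjusted p = 0.351).

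Both glutamate carriers with enough reads fell, beside 7.04% of all tested genes. SLC1A3, known as GLAST (chromosome 5, 36606355 to 36688334, plus strand), stood at 73.9, 79.7 and 72.8 CPM in the vector libraries and at 49.99, 53.5 and 52.3 CPM in the TFCP2L1 libraries. The libraries of each group lay close together and far from the other group. SLC1A3 fell by 0.54 on the log2 scale (SE 0.08; edgeR adjusted p = 0.000250). SLC1A1, the carrier of glutamate, aspartate and cysteine known as EAAC1 (chromosome 9, 4490444 to 4587469, plus strand), stood at 11.1, 11.4 and 13.9 CPM in the vector libraries and at 7.92, 9.31 and 6.45 CPM in the TFCP2L1 libraries. These groups did not overlap, but spread more. SLC1A1 fell by 0.62 on the log2 scale (SE 0.15; edgeR adjusted p = 0.0142). It was not called in edgeR with vector replicate 3 left out (adjusted p = 0.101) or TFCP2L1 replicate 1 left out (0.0564), nor in limma on the FPKM values (0.0573 with a pseudocount of 1 and also with 0.1).

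The neutral amino acid carriers of the same family did not pass the test. SLC1A5, the glutamine exchanger known as ASCT2 (chromosome 19, 46774883 to 46788594, minus strand), stood at 177, 177 and 172 CPM in the vector libraries and at 211, 188 and 217 CPM in the TFCP2L1 libraries. All 3 TFCP2L1 libraries were above the vector range, with replicate 2 the lowest, as for SLC7A5. The log2 fold change was 0.23 (95% interval 0.07 to 0.39; edgeR adjusted p = 0.0607). It passed the threshold with libraries scaled by total only (adjusted p = 0.0370), in DESeq2 (0.0364) and in edgeR without TFCP2L1 replicate 2 (0.0128). SLC1A4, a carrier of alanine, serine and cysteine, was at 9.56 ± 0.962 and 8.90 ± 0.537 CPM.

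**Figure D4:**
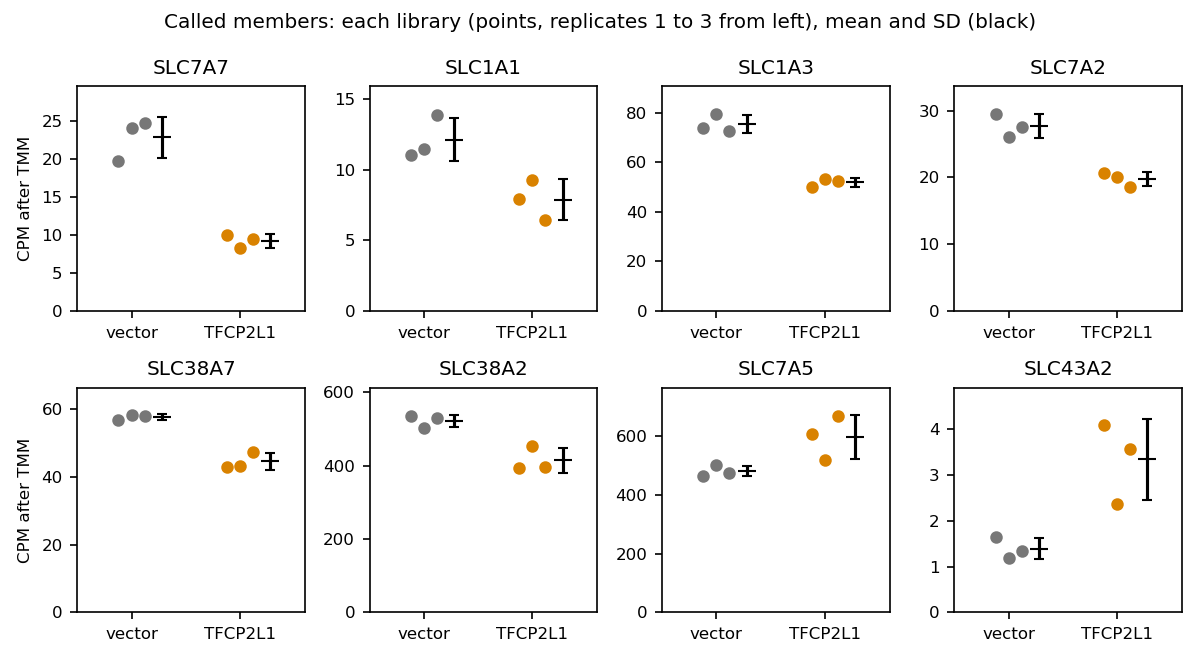
CPM after TMM scaling of the 8 called genes, with a point for each library (gray vector, orange TFCP2L1, replicates 1 to 3 from the left) and the mean and SD of the 3 in black. For these 8 genes the points of the groups do not overlap, and SLC43A2 is the lowest of them in level, between 1.19 and 4.10 CPM.

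Among the SLC38 carriers of glutamine and other neutral amino acids, 2 of 6 tested genes fell and 0 rose, beside 7.04% and 4.68% of all tested genes. The log2 fold change was below 0 for each of the 6, though above 0 for SLC38A1 and SLC38A6 without TFCP2L1 replicate 1. SLC38A2, known as SNAT2 and for its induction when amino acids run short (chromosome 12, 46358189 to 46372867, minus strand), stood at 534, 504 and 530 CPM in the vector libraries and at 393, 452 and 397 CPM in the TFCP2L1 libraries. The groups did not overlap, and TFCP2L1 replicate 2 was again the nearest to the vector cells. SLC38A2 fell by 0.34 on the log2 scale (SE 0.08; edgeR adjusted p = 0.00862). With vector replicate 1 left out it was not called in edgeR (adjusted p = 0.0585), nor with vector replicate 3 (0.0581) or TFCP2L1 replicate 1 (0.0513) left out. Its neighbour on chromosome 12, SLC38A1, known as SNAT1, was at 498 ± 21.4 and 487 ± 27.3 CPM and was not called (log2 fold change -0.03, 95% interval -0.19 to 0.12).

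SLC38A7, which exports glutamine and asparagine from the lysosome (chromosome 16, 58665109 to 58685104, minus strand), stood at 56.7, 58.3 and 58.0 CPM in the vector libraries and at 43.1, 43.3 and 47.4 CPM in the TFCP2L1 libraries. The vector libraries were within 2 CPM of each other, and each TFCP2L1 library was lower. SLC38A7 fell by 0.37 on the log2 scale (SE 0.08; edgeR adjusted p = 0.00619). SLC38A9, the lysosomal arginine sensor of mTORC1, was at 23.9 ± 0.531 and 21.8 ± 0.920 CPM; its 3 TFCP2L1 libraries lay below the vector libraries, but it was not called (log2 fold change -0.13, 95% interval -0.33 to 0.08; edgeR adjusted p = 0.447). The less studied SLC38A10 was at 69.2 ± 2.0 and 63.9 ± 7.42 CPM and SLC38A6 at 20.4 ± 0.844 and 19.2 ± 2.45 CPM.

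Of the 7 tested SLC6 carriers 0 were called, beside 11.7% of all tested genes. The family takes in carriers of taurine, creatine and neurotransmitters beside those of amino acids. SLC6A6, the taurine carrier, had levels of 117 ± 6.81 CPM (vector) and 126 ± 16.4 CPM (TFCP2L1), the creatine carrier SLC6A8 at 13.4 ± 0.834 and 15.4 ± 2.41 CPM, and the glycine carrier SLC6A9 at 13.6 ± 0.519 and 13.4 ± 1.32 CPM. Of the sequence words of 50 bases in SLC6A8 transcripts, 9.30% also occur in other genes, most of them in the pseudogene SLC6A10P, so its level is uncertain. SLC6A15, a carrier of branched-chain amino acids and proline, was at 5.95 ± 1.01 and 5.97 ± 0.627 CPM. The vesicular carrier SLC6A17 (3.06 ± 0.515 and 2.17 ± 0.0717 CPM) and SLC6A16 (2.58 ± 0.0757 and 1.94 ± 0.394 CPM) had all TFCP2L1 libraries below the vector libraries, with edgeR adjusted p of 0.169 and 0.299. SLC6A12, a carrier of betaine and GABA, passed the filter with 33 reads in vector and 14 reads in TFCP2L1 libraries.

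In the SLC36 and SLC43 families 1 of 5 tested genes was called (beside 11.7% of all tested genes), and it rose. SLC43A2, a facilitated carrier of large neutral amino acids known as LAT4 (chromosome 17, 1569267 to 1628886, minus strand), stood at 1.65, 1.19 and 1.34 CPM in the vector libraries and at 4.10, 2.37 and 3.58 CPM in the TFCP2L1 libraries. The groups did not overlap, and TFCP2L1 replicate 2 was the lowest of its group, as for SLC7A5 and SLC1A5. SLC43A2 rose by 1.26 ± 0.27 (SE) on the log2 scale, 2.40-fold (edgeR adjusted p = 0.00552), from 45 to 62 reads in each vector library to 93 to 160 reads in each TFCP2L1 library. Per length it stayed far below SLC7A5, at 0.150 ± 0.0253 FPKM in vector and 0.368 ± 0.0991 FPKM in TFCP2L1 cells. SLC43A1, known as LAT3, was at 7.78 ± 0.442 and 7.38 ± 0.0964 CPM. SLC43A3, which is known as a carrier of purine bases rather than of amino acids, was at 252 ± 14.4 and 279 ± 7.85 CPM (log2 fold change 0.15, 95% interval -0.01 to 0.30; edgeR adjusted p = 0.222), and 29.9% of its exon bases are shared with the gene AP000781.2 on the same strand. The proton-coupled carriers SLC36A1 (45.2 ± 1.90 and 47.1 ± 2.02 CPM) and SLC36A4 (41.3 ± 1.77 and 39.1 ± 3.04 CPM) were not called.

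**Figure D5:**
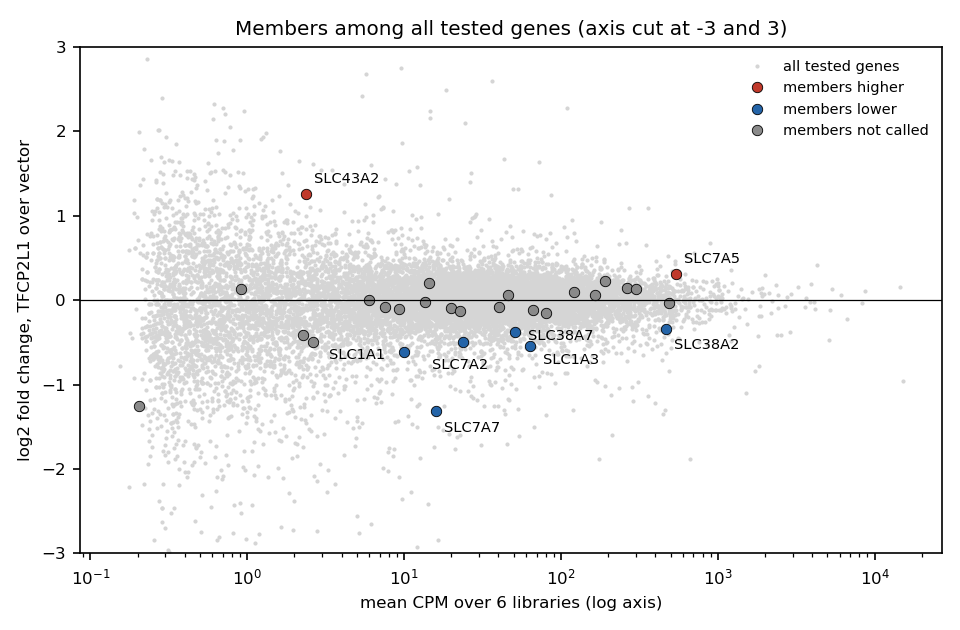
Log2 fold change against mean CPM over the 6 libraries (log axis) for all 14431 tested genes (light gray), with the 29 transporter genes as larger points coloured by call. The vertical axis is limited to -3 and 3, which leaves out 22 genes. SLC7A5 and SLC38A2 are among the abundant genes, and SLC43A2 among the low ones.

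The 12 genes that were not tested had 1 to 60 reads over all 6 libraries, and 5 of them had at most 2. The most abundant was SLC7A9, the cystine and arginine exchanger that pairs with SLC3A1, with 34 reads in vector and 26 in TFCP2L1 libraries. SLC38A5 had 17 and 10 reads, the glutamate carrier SLC1A2 had 7 and 10, SLC6A13 had 6 and 5, and the proline carrier SLC6A7 had 9 and 0. SLC7A8, known as LAT2, had 1 read in vector and 13 reads in TFCP2L1 libraries, 10 of these in replicate 1. SLC38A4 had 1 and 6 reads. SLC6A18, SLC38A3 and SLC6A11 had 1 and 0 reads, SLC38A11 had 1 and 1, and SLC6A20 had 0 and 1. With so few reads these genes were left out of the main test, so no difference in them was judged there. With no filter on low counts, the called transporter genes were the same.

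Promoter sequences from RefSeq (GRCh38.p14) were searched in windows of 300 bases, from 250 before to 50 after each annotated start. They were found for 33 of the 41 genes, in 54 windows, some of which overlap. The words searched, on both strands, were TGATGNAA, the core of the element bound by CEBP and ATF factors, CACGTG, the E-box, and the CP2 repeat, CCAG followed by 6 bases of any kind and CCAG again, known from binding sites of TFCP2L1. TGATGNAA was in 6 of the 54 windows (11.1%) and in 3.62% of all 35116 windows, CACGTG in 9 (16.7%) and in 7.26%, and the CP2 repeat in 2 (3.70%) and in 4.04%. Base composition was not matched, so these shares are descriptions. Among the 14 windows of called genes the counts were 1, 3 and 1. The 3 with CACGTG belonged to SLC7A5, which rose, and to SLC7A7 and SLC38A7, which fell. In SLC7A7 it began at -225 and in SLC38A7 at 14 from the start of the window's transcript, and these stretches are not printed. The 4 stretches below are shown because each holds a match upstream of a start in the SLC7A5 and SLC3A2 pair and in SLC7A7 and SLC1A3, which fell; capitals mark the match, and each reads 5′ to 3′ on the strand of its gene.
SLC7A5, E-box, chr16:87869605-87869664, minus strand: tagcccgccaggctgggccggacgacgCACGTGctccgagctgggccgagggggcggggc
SLC3A2, repeat, chr11:62880658-62880717, plus strand: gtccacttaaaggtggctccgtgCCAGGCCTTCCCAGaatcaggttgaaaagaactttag
SLC7A7, repeat, chr14:22819840-22819899, minus strand: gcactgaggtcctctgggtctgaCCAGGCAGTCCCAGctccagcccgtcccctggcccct
SLC1A3, CEBP and ATF element, chr5:36596342-36596401, plus strand: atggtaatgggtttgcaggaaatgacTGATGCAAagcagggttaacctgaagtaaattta
The first base of the marked match lies at -130 for SLC7A5, -215 for SLC3A2, -85 for SLC7A7 and -220 for SLC1A3, counted from the annotated start of that window. SLC3A2, SLC7A7 and SLC1A3 each have other annotated starts, and the windows there did not hold the same word. The start used for SLC1A3 lies upstream of the gene start given above (36606355). Those used for SLC3A2 and SLC7A7 lie inside the gene spans given above. Which start TPC1 cells use was not tested. The repeat was found in a gene that was not called and in one that fell. A match alone does not show a bound site, and whether these matches play a part in the levels was not tested.

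Other genes of amino acid handling were read from 6 lists. In the list of amino acid sensing upstream of mTORC1, 4 of 35 tested genes fell (11.4%, beside 7.04% of all tested genes) and 0 rose. The count that rose was 2 with libraries scaled by total only and 1 without TFCP2L1 replicate 2. The genes that fell were FNIP2, a partner of folliculin (55.0 ± 3.40 to 39.9 ± 3.04 CPM), BMT2, the sensor of S-adenosylmethionine (19.6 ± 2.10 to 14.8 ± 1.34 CPM), and the Rag GTPase genes RRAGD (58.3 ± 1.68 to 47.1 ± 2.78 CPM) and RRAGC (106 ± 4.58 to 87.3 ± 7.43 CPM). BMT2, RRAGD and RRAGC were not called when vector replicate 1, vector replicate 3 or TFCP2L1 replicate 1 was left out, nor were BMT2 and RRAGC without TFCP2L1 replicate 3. The median log2 fold change of the list was -0.06.

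In the amino acid response list, which holds ATF4 and its targets, 3 of 25 genes fell (12%, beside 7.04% of all tested genes) and 0 rose, and the median log2 fold change was 0.04. STC2, a secreted glycoprotein, fell from 93.9 ± 5.68 to 50.4 ± 1.68 CPM, the alanine transaminase gene GPT2 from 68.7 ± 6.02 to 53.0 ± 5.36 CPM and the transcription factor gene CEBPB from 167 ± 4.73 to 137 ± 7.36 CPM. The GPT2 and CEBPB calls were lost without vector replicate 1 or 3. The list's count of genes that rose was 3 without TFCP2L1 replicate 3. Of the 20 aminoacyl-tRNA synthetase genes 2 rose (10%, beside 4.68% of all tested genes) and 0 fell (beside 7.04%), with a median log2 fold change of 0.08. Those that rose were FARSB (55.6 ± 2.91 to 69.1 ± 3.36 CPM) and VARS1 (135 ± 3.09 to 163 ± 9.38 CPM). FARSB was no longer called without vector replicate 1 or 3, and VARS1 without any 1 of the vector replicates or TFCP2L1 replicate 1 or 3; 3 genes of the list rose without TFCP2L1 replicate 2.

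Among 20 tested genes of other amino acid and peptide carriers 1 rose and 1 fell (5% each, beside 4.68% and 7.04% of all tested genes). The count that rose was 2 without TFCP2L1 replicate 2 and with no filter on low counts. SLC7A11, the cystine and glutamate exchanger, rose from 15.9 ± 0.422 to 24.7 ± 4.57 CPM (edgeR adjusted p = 0.00346), and SLC17A5, the lysosomal exporter of sialic acid, fell from 44.9 ± 0.887 to 26.1 ± 2.55 CPM (edgeR adjusted p = 3.71e-05). Of 21 genes of amino acid metabolism 2 rose and 2 fell (9.52% each, beside 4.68% and 7.04%). ASS1, which makes argininosuccinate for arginine synthesis, fell from 32.7 ± 2.68 to 10.6 ± 1.085 CPM (log2 fold change -1.62 ± 0.11; edgeR adjusted p = 9.67e-08). BCAT1, which transaminates branched-chain amino acids, fell from 209 ± 4.90 to 170 ± 16.2 CPM, while GOT1, the aspartate transaminase, rose from 55.2 ± 6.02 to 68.3 ± 3.12 CPM and ODC1, the first enzyme of polyamine synthesis, from 69.3 ± 7.66 to 90.04 ± 12.7 CPM. The BCAT1, GOT1 and ODC1 calls were each lost without any 1 of 4 of the 6 libraries. Without TFCP2L1 replicate 2, 3 genes of this list fell. Of 6 tested partners and regulators of the carriers 2 fell (33.3%, beside 7.04%) and 0 rose: LAPTM4B, which brings SLC7A5 to the lysosome (317 ± 27.1 to 250.2 ± 23.5 CPM), and the kinase gene SGK1 (4.16 ± 0.983 to 2.45 ± 0.493 CPM). Neither was called without vector replicate 1 or 3, nor SGK1 without TFCP2L1 replicate 1 or 2. STC2, SLC7A11, SLC17A5 and ASS1 were called under all 17 alternatives run, and FNIP2 under all but the test against a 1.2-fold change. In limma on log2(FPKM + 1), BMT2, RRAGD, RRAGC, GPT2, CEBPB, BCAT1, GOT1, ODC1, LAPTM4B and SGK1 were not called. These genes, FARSB and VARS1 were also not called with the replicate block or in the test against a 1.2-fold change. RRAGC was not called with libraries scaled by total only, nor SGK1 in limma on the counts (voom).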

How the data were processed

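Total RNA was extracted with TRIzol and made into libraries with a VAHTS Universal RNA-seq kit, per the labels' protocols. Per the submitters' processing notes, fastp, HISAT2 and HTSeq were used on GRCh38.p13. Versions and strand handling are not given in the sources used here. The authors deposited raw read counts per gene and FPKM values for the same 21173 genes. The deposited FPKM values equal the counts divided by library total and 1 length per gene, so they are no independent measurement.

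Counts were tested in R 4.3.3 with edgeR 4.0.16 (filterByExpr, TMM, robust quasi-likelihood F-test, two-sided) in 1 fit of all 6 libraries, and p-values were adjusted over all 14431 tested genes. The SE was derived from the log2 fold change and F, and 95% intervals use the moderated degrees of freedom. The common dispersion was 0.0116. The procedure was tested on simulated data. No pair of replicates was a copy (chi-square per gene 7.49 to 42.4). Alternatives used DESeq2 1.42.0 and limma 3.58.1, other scalings and filters, FPKM with pseudocounts of 1 and 0.1, a test against 1.2-fold, a replicate block and leaving out each library. Every transporter gene was reported. Of each list up to 4 called genes with the largest change were named. Members and lists were chosen with earlier results of these data known. Positions and overlaps come from GENCODE v29 on GRCh38.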

Additional observations from a re-analysis of the deposited data

How the results depend on the processing

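The 29 tested transporter genes were each recomputed under 17 settings (16 for SLC6A12), giving 492 values: 454 kept direction and side of the threshold, 21 lost a call, 3 gained one and 14 changed sign. The sign changes were all in genes that were not called. The log2 fold change of SLC6A9 was 0.00822 with libraries scaled by total only, and 0.00440 and 0.00479 in limma on log2(FPKM + 1) and log2(FPKM + 0.1). When a library was left out, log2 fold changes ran from -0.0959 to 0.0444 for SLC6A9, from -0.0632 to 0.154 for SLC3A2, from -0.0358 to 0.383 for SLC3A1, from -0.121 to 0.119 for SLC6A15, from -0.0162 to 0.161 for SLC6A6, from -0.0683 to 0.0121 for SLC38A1 and from -0.176 to 0.00626 for SLC38A6. The count of transporter genes that rose was 1 in both limma fits on FPKM, in the test against a 1.2-fold change and with the replicate block, 3 with libraries scaled by total only and in DESeq2, and 1 to 3 when a library was left out; the count that fell was 2 in the test against 1.2-fold, which kept SLC7A7 and SLC1A3, and 4 to 6 when a library was left out. Over all genes, 175 were higher and 430 lower in the test against 1.2-fold, 331 and 665 with the replicate block, and between 294 and 763 higher and 654 and 1108 lower when a library was left out. Across genes, deviations from the group means had r = 0.07, -0.16 and -0.12 for same-numbered libraries 1 to 3. For differently numbered pairs r ran from -0.11 to 0.22, the highest for vector replicate 2 with TFCP2L1 replicate 3. Deviations from a mean of 3 libraries depend on each other, so these values cannot decide whether libraries shared a batch. With the replicate block SLC7A5, SLC1A1 and SLC38A2 were not called. SLC43A2 was called under all 17 settings, with a log2 fold change of 0.25 in limma on log2(FPKM + 1), where the pseudocount shrinks low genes. The legacy quasi-likelihood statistics, an alternative chosen after seeing the data, gave the same 8 calls. The cause of the other shifts was not tested.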

Other observations

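The library with the highest or lowest level in its group was counted over the transporter genes only. Such counts were not made over all tested genes, and whether they are uneven was not tested. Of the 29 tested transporter genes, 13 had their highest TFCP2L1 level in replicate 3 and 14 their lowest in replicate 2. In vector cells 13 had their highest level in replicate 2 and 15 their lowest in replicate 1. The ratio of SLC38A2 to SLC38A1 in FPKM was 2.60, 2.29 and 2.38 in the vector libraries and 1.98, 2.04 and 1.86 in the TFCP2L1 libraries, without overlap, and that of SLC1A5 to SLC1A3 was 3.64, 3.38 and 3.60 against 6.41, 5.36 and 6.32.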
